A study of Homo sapiens with 36 samples.

Results

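The comparison set out here is of ribosome footprints in MCF10A-ER-Src cells after 24 h of tamoxifen, set against the same cells after 4 h of tamoxifen. It rests on 4 of the 36 libraries of the series, taken by their labels, namely replicates 1 and 2 at each time, all made under cycloheximide. MCF10A-ER-Src is a human breast epithelial line, and each group carries the same fusion of the Src kinase to the oestrogen receptor. The other groups used beside them were tamoxifen at 1 h (replicates 1 and 2), cells at 0 h (1 library) and cells given ethanol, the vehicle, for 1, 4 or 24 h (1 library each). The 0 h and ethanol libraries together are called uninduced. 4-hydroxytamoxifen was given at 1 µM, and cycloheximide at 100 µg/ml for 90 s before lysis. RNA libraries (7, each without a replicate) and footprints after harringtonine, which stalls ribosomes at start codons (4), are used beside them, and the fibroblast libraries of the series are not analysed here. The labels do not say that replicates came from separate cultures, so p-values measure the spread between these samples, which may be technical.

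Src is a tyrosine kinase that signals from the membrane and from integrins to STAT3, MAP kinase and other pathways. Fused to the hormone-binding domain of the oestrogen receptor it is held inactive until tamoxifen binds, so that this ligand starts the signal. A ribosome footprint is a stretch of messenger RNA shielded by a ribosome, and the number of footprints on a gene follows both the amount of its message and how densely ribosomes load on it. The messages of ribosomal proteins and elongation factors begin with a tract of pyrimidines (the TOP motif), through which growth signalling such as mTOR can change their translation with little change in their amount.

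Total counts over 1 row per symbol ranged from 1334996 to 3628194 in the 10 cycloheximide libraries, from 2225394 to 3007841 in the 7 RNA libraries and from 163092 to 374332 in the 4 harringtonine libraries of these cells. Levels are given as CPM, counts scaled by TMM to a common library size, and they depend on gene length, so they are compared within a gene. The 11 epithelial markers summed to between 17600 and 19700 CPM at 24 h, against 16800 to 17500 CPM at 4 h. Fibroblast markers summed to 17.8 to 38.5 CPM at 24 h, against 18.4 to 20.3 CPM at 4 h, and endothelial markers to at most 4.02 CPM in these libraries. The fibroblast marker DCN was called higher at 24 h than at 4 h. Its log2 change ran from 0.69 to 2.06 as each library was left out in turn, and its part in any result was not tested. The 8 leukocyte markers summed to 120 to 149 CPM at 24 h, against 65.1 to 67.8 CPM at 4 h, with PTPRC, CD3E, LYZ and HBB at 0 in all 10 libraries. CD14, a receptor for bacterial lipid, had 32.0 and 47.9 CPM at 24 h, against 20.7 and 13.5 CPM at 4 h, a log2 change of 1.31 ± 0.35 (SE, adjusted p = 0.031). CD68, a lysosomal membrane protein also made by other cells, had 117 and 71.7 CPM at 24 h, against 47.1 and 51.6 CPM at 4 h, a log2 change of 0.90 ± 0.23 (SE, adjusted p = 0.022). Both times were separated in these 2 genes. CD14 (adjusted p = 0.326) and CD68 (0.128) were not called without replicate 2 of 4 h. CD68 (adjusted p = 0.0956) was not called without replicate 1 of 4 h. CD68 (adjusted p = 0.242) was not called without replicate 1 of 24 h. CD14 (adjusted p = 0.324) was not called without replicate 2 of 24 h. Their part in any result was not tested. On the first principal component of the 10 libraries, which held 43.3% of the variance, the 24 h libraries lay at 51.7 (replicate 1) and 48.2 (replicate 2), while those of 4 h lay at 4.82 (replicate 1) and −9.75 (replicate 2). In a bulk library, a change in the share of cells of one kind and a change within each cell cannot be told apart.

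Footprints of 856 genes (8.4%) differed between 24 h and 4 h. Of 10195 genes tested, 522 were called higher at 24 h than at 4 h (5.12%) and 334 lower (3.28%), with an adjusted p under 0.05 in edgeR's quasi-likelihood test. At least a 2-fold difference was seen for 322 of the higher and 119 of the lower genes. In all 522 higher genes both 24 h libraries lay above both 4 h libraries, as in 2842 of all genes tested. In all 334 lower genes they lay below, as in 2820 of all genes tested. Statements below that the times were separated hold for every called gene, so they add no support to a call. Without replicate 2 of 4 h the counts were 125 higher and 55 lower, and without replicate 1 of 24 h they were 272 and 118. Without replicate 2 of 24 h they were 209 higher and 84 lower, and each of these fits leaves 1 library in an arm. Replicate 1 of 4 h had the larger value of the 2 libraries of 4 h in 383 of the 522 higher genes (73.4%) and in 108 of the 334 lower genes (32.3%), beside 49.6% of all genes tested. Within replicate 1 the median log2 change of the genes called higher was 1.04, and within replicate 2 it was 1.26. For genes called lower it was −0.81 and −0.92 in replicates 1 and 2. RNA had a ratio of the same sign in most called genes, with 1 library per time and no test. Among genes with an RNA value, the 24 h over 4 h ratio of RNA was above 0 on the log2 scale in 460 of 469 genes called higher, with a median of 0.99 beside 1.11 for footprints. It was below 0 in 222 of 301 genes called lower, with a median of −0.53 beside −0.85.

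**Figure D1:**
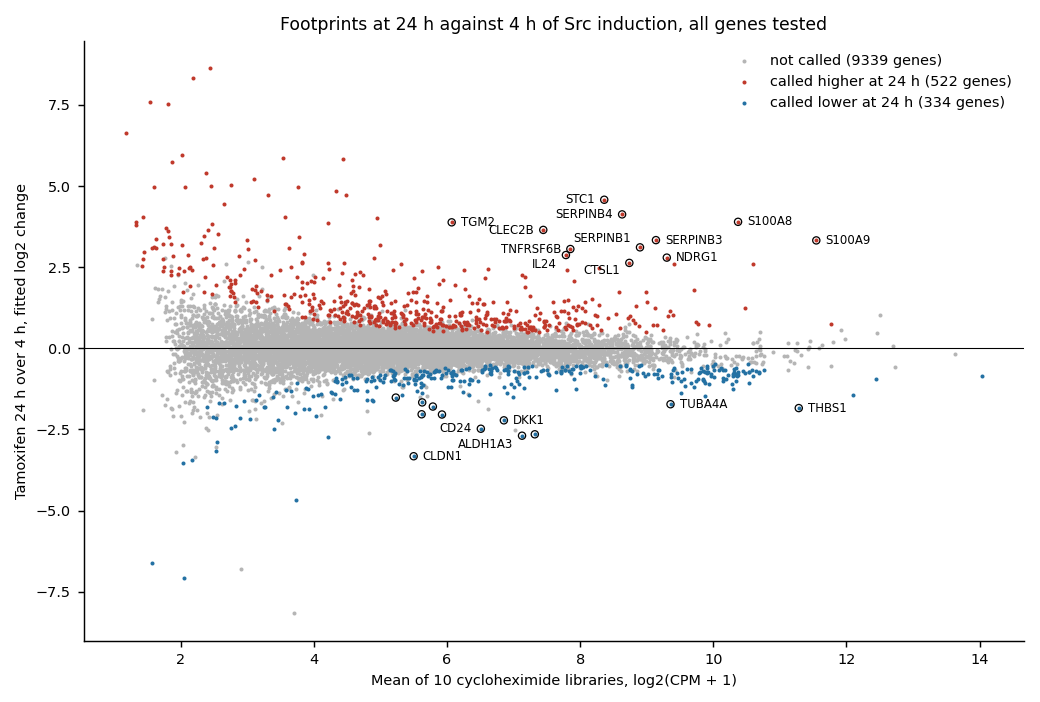
Fitted log2 change of footprints, tamoxifen 24 h over 4 h, against the mean level over the 10 cycloheximide libraries on the log2(CPM + 1) scale, 1 point per gene tested. Red points are the 522 genes called higher at 24 h, blue the 334 called lower, and circles mark the 12 largest rises and 12 largest falls above the median level, some of them named. Points far from 0 at the left have few counts in one group.

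Among genes above the median level, the largest rises included secreted proteins. STC1, a secreted glycoprotein hormone linked to calcium and phosphate balance, had 1682 and 1329 CPM at 24 h, against 117 and 17.2 CPM at 4 h, a log2 change of 4.58 ± 0.72 (SE, adjusted p = 0.00101). S100A8, a chain of the calcium-binding dimer calprotectin, had 4830.3 and 6336 CPM at 24 h, against 482 and 271 CPM at 4 h, a log2 change of 3.90 ± 0.37 (SE, adjusted p = 1.45e-05). Its partner S100A9 had 11829 and 11411 CPM at 24 h, against 1483 and 840.2 CPM at 4 h, a log2 change of 3.32 ± 0.32 (SE, adjusted p = 1.45e-05). The 2 libraries of 24 h lay far above both of 4 h for each of these genes, and replicate 1 was the higher library at 4 h. TGM2, which crosslinks proteins, had 199 and 322 CPM at 24 h, against 27.0 and 11.3 CPM at 4 h, with a log2 change of 3.88 ± 0.44 (SE, adjusted p = 7.41e-05). CLEC2B, a lectin that is a ligand of a natural killer cell receptor, had 606 and 879.8 CPM at 24 h, against 75.8 and 45.7 CPM at 4 h, with a log2 change of 3.65 ± 0.41 (SE, adjusted p = 5.88e-05). TNFRSF6B, a soluble decoy receptor for Fas ligand, changed by 3.06 ± 0.28 (SE, adjusted p = 1.03e-05). The log2 ratio of CPM + 1 for STC1 was 3.83 within replicate 1 and 6.19 within replicate 2. STC1 had an RNA ratio of 5.88 and S100A8 one of 4.58. 

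Clade B serpins, which inhibit proteases inside cells, held 4 of the rises. SERPINB4 had 1498 and 2086 CPM at 24 h, against 162 and 49.7 CPM at 4 h, a log2 change of 4.13 ± 0.71 (SE, adjusted p = 0.002). Its close relative SERPINB3 had 2192 and 2694 CPM at 24 h, against 353 and 137 CPM at 4 h, a log2 change of 3.33 ± 0.57 (SE, adjusted p = 0.00186). The coding sequences of this pair are near-identical, so counts split between them are uncertain. SERPINB1, an inhibitor of neutrophil proteases, had 1813 and 1854 CPM at 24 h, against 291 and 138 CPM at 4 h, a log2 change of 3.11 ± 0.28 (SE, adjusted p = 1.03e-05), with no overlap between the times. SERPINB13, found in squamous epithelium, had 41.8 and 69.2 CPM at 24 h, against 15.5 and 12.5 CPM at 4 h, a log2 change of 2.04 ± 0.33 (SE, adjusted p = 0.00149). Of 9 clade B serpins tested, 4 rose, where 5.12% of all genes did, and 1 fell, SERPINB7 of keratinocytes, with 1.23 and 1.81 CPM at 24 h, against 8.61 and 9.38 CPM at 4 h and a log2 change of −2.46 ± 0.57 (SE, adjusted p = 0.0131). SERPINB1, SERPINB3 and SERPINB13 were also called at 4 h over uninduced. Only 1 serpin was called higher without replicate 2 of 4 h. SERPINB4 (adjusted p = 0.0539), SERPINB3 (0.0512), SERPINB13 (0.0542) and SERPINB7 (0.116) were not called without replicate 2 of 4 h. SERPINB7 (adjusted p = 0.0835) was not called without replicate 1 of 24 h. SERPINB13 (adjusted p = 0.0767) and SERPINB7 (0.117) were not called without replicate 2 of 24 h.

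Few genes were called before 24 h. At 1 h, 2 genes were called higher than in uninduced cells (0.0196% of genes tested) and 0 lower by edgeR, with 797 genes at an unadjusted p under 0.05. These were SGK1, a kinase induced by stress and steroids (log2 1.21, adjusted p = 0.0133), and GADD45B, a growth arrest and stress protein (log2 1.87, adjusted p = 0.0133). At 4 h, 86 genes were higher than in uninduced cells (0.844%) and 2 lower (0.0196%), or 0.863% in either direction. At 24 h, 897 were higher (8.8%) and 596 lower (5.85%). The 24 h over 4 h and 4 h over uninduced comparisons share the 4 h libraries, so the classes that follow describe each gene's path. Of the 522 genes higher at 24 h than at 4 h, 493 were not called at 4 h over uninduced (late rises). Of these, 428 were also higher at 24 h than in uninduced cells. The other 29 of the 522 were called in both steps (further rises). The count of 428 reuses the 24 h libraries by which these genes were picked, so it adds no support to them. Of the 334 lower genes, 324 were late falls and 10 were early rises that faded. No early fall went further or recovered, with 2 early falls to begin with. Late means not called at 4 h, which does not show that a gene was unchanged then. At 4 h over uninduced 763 genes had an unadjusted p under 0.05 in edgeR. The median log2 change at 4 h was 0.04 for late rises and 0.08 for late falls. In edgeR CLEC2B, a late rise, was at 1.51 (adjusted p = 0.106), and LIF, a late fall, at 2.01 (adjusted p = 0.0779). Without replicate 1 of 4 h there were 3 further and 4 faded rises, and without replicate 2 of 4 h there were 17 further and 3 faded rises, 108 late rises and 52 late falls.

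Of the 86 early rises, 29 rose further by 24 h. IL24, a cytokine of the IL10 family, had 817 and 1007 CPM at 24 h, against 159.7 and 92.9 CPM at 4 h, a log2 change of 2.87 ± 0.45 (SE, adjusted p = 0.00101) after a rise of 3.06 at 4 h over uninduced. SOCS3, the feedback inhibitor of STAT3 signalling, had 154 and 179 CPM at 24 h, against 45.4 and 21.3 CPM at 4 h, a log2 change of 2.40 ± 0.34 (SE, adjusted p = 0.000488) after 2.59 at 4 h. SOD2, the mitochondrial superoxide dismutase and a target of NF-kB, had 1234 and 1626 CPM at 24 h, against 691 and 521 CPM at 4 h, a log2 change of 1.24 ± 0.19 (SE, adjusted p = 0.00101) after 1.45. Both 24 h libraries exceeded both 4 h libraries for each of these genes. PNRC1, a nuclear receptor coregulator, rose by 2.18 ± 0.29 (adjusted p = 0.000241), beside 1.30 in the ethanol libraries, which have no replicate. MT1X, a metallothionein that binds zinc and copper, rose by 2.06 ± 0.41 (adjusted p = 0.00505, its sequence is shared in part with other metallothioneins). BIK, a pro-death member of the BCL2 family, had 67.0 and 84.3 CPM at 24 h, against 36.8 and 28.2 CPM at 4 h, a log2 change of 1.26 ± 0.20 (SE, adjusted p = 0.00107). MT1X (adjusted p = 0.0623) was not called without replicate 2 of 4 h.

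Among the 10 early rises that faded were the tight junction genes CLDN1 and OCLN. CLDN1, a claudin that seals tight junctions (GRCh37 chromosome 3, 190023496 to 190040235), had 14.8 and 11.1 CPM at 24 h, against 123 and 129 CPM at 4 h. Its log2 change was −3.33 ± 0.29 (SE, adjusted p = 6.92e-06) after a rise of 2.42 at 4 h over uninduced (adjusted p = 5.77e-05), and 24 h lay −0.90 from uninduced on the log2 scale (adjusted p = 0.0445). CD24, a glycoprotein used to sort breast epithelial cells, had 22.8 and 33.1 CPM at 24 h, against 144 and 176 CPM at 4 h, a log2 change of −2.48 ± 0.19 (SE, adjusted p = 2.94e-06) after 0.97. Both 24 h libraries lay below both 4 h libraries for CLDN1 and CD24. GRHL3, a transcription factor of the epidermal barrier, had 1.23 and 1.20 CPM at 24 h, against 29.3 and 35 CPM at 4 h, and OCLN, the tight junction protein occludin, had 5.54 and 6.32 CPM at 24 h, against 39.6 and 41.3 CPM at 4 h. Their log2 changes were −4.68 ± 0.50 (SE, adjusted p = 3.83e-05) and −2.74 ± 0.47 (SE, adjusted p = 0.002), and both are at low levels at 24 h. 

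The other faded rises included inflammatory genes. IL1B, the cytokine interleukin 1 beta, had 276 and 313 CPM at 24 h, against 558 and 723 CPM at 4 h, a log2 change of −1.12 ± 0.29 (SE, adjusted p = 0.0238) after 1.12, and the ethanol libraries changed by −1.30 over the same hours. CSF1, a macrophage growth factor, had 11.7 and 10.5 CPM at 24 h, against 27.6 and 24.7 CPM at 4 h, a log2 change of −1.24 ± 0.34 (SE, adjusted p = 0.035). CXCL11, a chemokine induced by interferon, had 0 counts at 24 h against 24 at 4 h, which is at least 8.01-fold lower with a floor of 3 counts over the group. TRIM16, a ubiquitin ligase, changed by −0.91 ± 0.18 (SE, adjusted p = 0.006), and CDC42EP1, an effector of the GTPase CDC42, by −0.97 ± 0.18 (SE, adjusted p = 0.00323). RNA at 24 h over 4 h was below 0 on the log2 scale for all 9 faded genes with an RNA value, with a median of −2.09. IL1B (adjusted p = 0.212), CSF1 (0.156), TRIM16 (0.109) and CDC42EP1 (0.0574) were not called without replicate 2 of 4 h. CSF1 (adjusted p = 0.125) was not called without replicate 1 of 4 h. IL1B (adjusted p = 0.159), CSF1 (0.122) and TRIM16 (0.0608) were not called without replicate 1 of 24 h. IL1B (adjusted p = 0.121), CSF1 (0.246), TRIM16 (0.0501) and CDC42EP1 (0.0814) were not called without replicate 2 of 24 h.

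The remaining 47 early rises were not called at 24 h over 4 h. Of all 86, 72 were higher at 24 h than in uninduced cells, a count that reuses the uninduced libraries behind their selection. The largest, picked after their values were seen, was CCL2, a chemokine that draws monocytes, with 17.2 and 34.9 CPM at 24 h, against 67.2 and 22.2 CPM at 4 h. It was 5.34 above uninduced at 4 h on the log2 scale (adjusted p = 0.000264) and 4.68 at 24 h (adjusted p = 4.29e-05), and its change between the times was −0.66 ± 0.44 (SE, adjusted p = 0.401). BCL3, an atypical NF-kB inhibitor that also acts in the nucleus, had 129.8 and 94.8 CPM at 24 h, against 103 and 58.2 CPM at 4 h, also picked after its values were seen. The libraries of the 2 times overlapped in both genes. BCL3 was 2.22 above uninduced at 4 h (adjusted p = 0.00971) and 2.71 at 24 h.

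**Figure D2:**
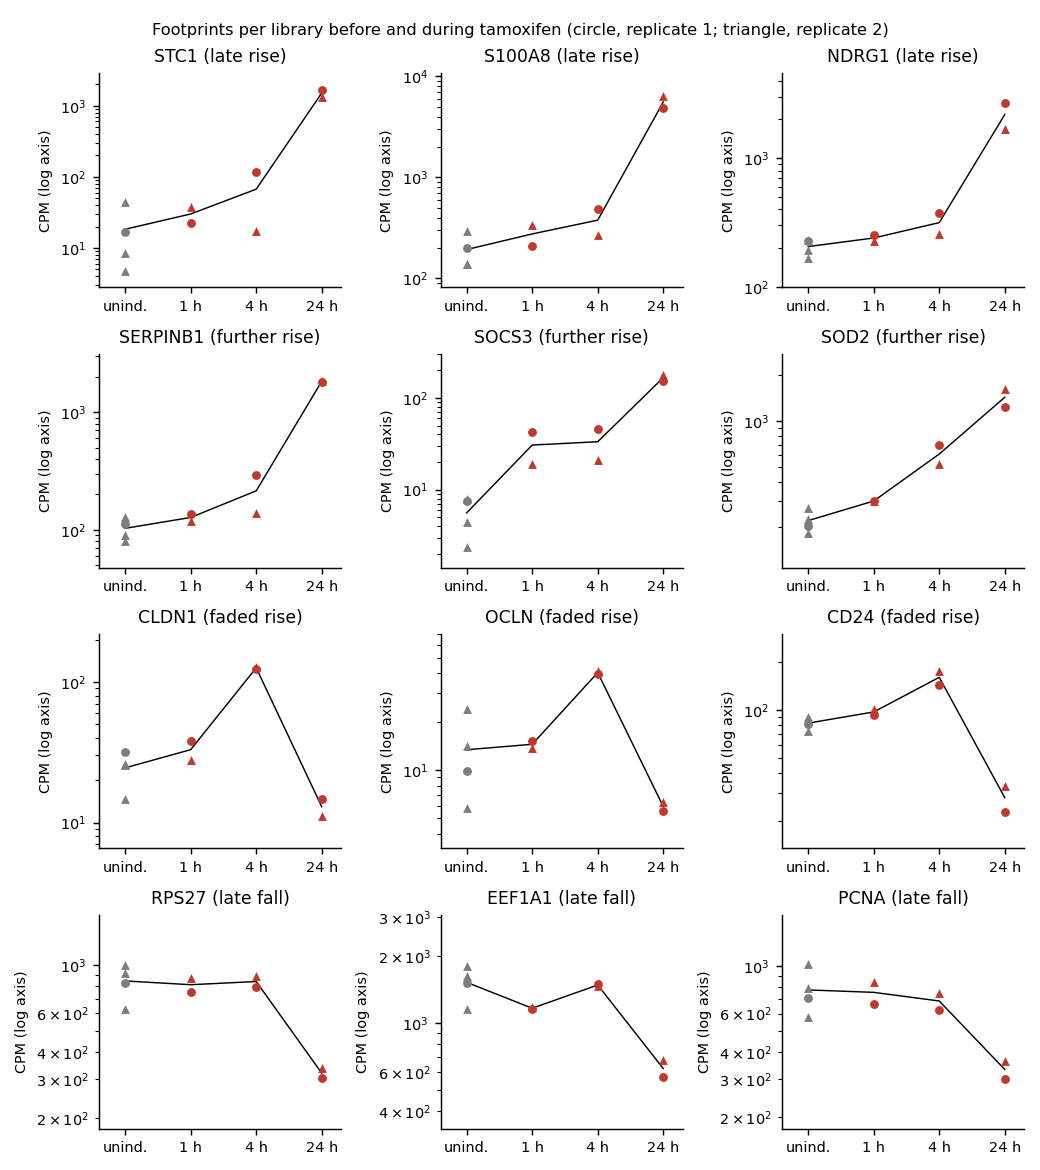
Footprints of 12 genes in CPM on a log axis, in uninduced cells (grey, 4 libraries) and at 1, 4 and 24 h of tamoxifen (red, 2 libraries each). Circles are replicate 1, triangles replicate 2, and the line joins group means. The top 3 genes rise after 4 h, the next 3 rise in both steps, CLDN1, OCLN and CD24 peak at 4 h, and RPS27, EEF1A1 and PCNA fall after 4 h.

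Footprints on most ribosomal protein messages fell after 4 h. Of 77 cytosolic ribosomal protein genes tested, 59 were lower at 24 h than at 4 h and 0 higher, where 3.28% of all genes were lower. All 77 had a log2 change below 0, from −1.39 to −0.24, with a median of −0.73 beside −0.01 over all genes tested. At 4 h over uninduced 0 were called in either direction by edgeR, and 0 had an unadjusted p under 0.05, with a median of −0.01. At 24 h over uninduced 68 of the 77 were lower, where 5.85% of all genes were. The share of all counts on these genes was 5.23% and 5.44% at 24 h, against 7.84% and 9.34% at 4 h. Of the 77, 13 were called lower without replicate 2 of 4 h, 28 without replicate 1 of 24 h, 32 without replicate 2 of 24 h and 61 without replicate 1 of 4 h. The median was −0.62 within replicate 1 and −0.82 within replicate 2.

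RNA of the ribosomal protein genes was mostly level or higher at 24 h. The median log2 ratio of RNA at 24 h over 4 h for the 77 genes was 0.18, with 17 of 77 below 0, from 1 library per time and no test. The ethanol libraries gave a median of −0.13 for footprints and −0.05 for RNA. Against that ethanol change the median of the differences was −0.58, and 0 of the 77 passed edgeR's test of the difference one by one, with 36 below 0 and 0 above at an unadjusted p under 0.05. Harringtonine footprints at 24 h over 4 h, from 1 library each, gave a median log2 ratio of 0.21 beside 0.20 over all genes. Many ribosomal protein genes have processed copies in the genome, so some counts may be shared with these.

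RPS27, a protein of the small subunit, had 303 and 337 CPM at 24 h, against 795 and 886 CPM at 4 h, a log2 change of −1.39 ± 0.19 (SE, adjusted p = 0.000362) with an RNA ratio of 0.33. RPL37A, of the large subunit, had 661 and 660.0 CPM at 24 h, against 1442 and 1414 CPM at 4 h, a log2 change of −1.11 ± 0.15 (SE, adjusted p = 0.000258) with an RNA ratio of 0.02. RPS2 had 215 and 243 CPM at 24 h, against 464 and 579 CPM at 4 h, a log2 change of −1.18 ± 0.17 (SE, adjusted p = 0.000422) with an RNA ratio of 0.14. Both 24 h libraries lay below both 4 h libraries in each, and the RNA ratios were above 0. Of 48 translation factors 6 were lower (12.5%) and 0 higher, with a median of −0.17, and 5 of the 6 act in elongation. EEF1A1, which brings aminoacyl-tRNA to the ribosome, had 568 and 679 CPM at 24 h, against 1489 and 1472 CPM at 4 h, a log2 change of −1.25 ± 0.18 (SE, adjusted p = 0.00067) with an RNA ratio of 0.33. EEF1B2, an exchange factor for it, had 341 and 422 CPM at 24 h, against 910.3 and 1221 CPM at 4 h, and changed by −1.48 ± 0.25 (SE, adjusted p = 0.00169) with an RNA ratio of −0.20. EEF1G, of the same complex, changed by −1.07 ± 0.20 (SE, adjusted p = 0.00326) with an RNA ratio of 0.13. In the ethanol libraries footprints changed by −0.71 for EEF1B2, −0.50 for EEF1A1, −0.53 for EEF1G, −0.55 for RPS27, −0.33 for RPL37A and −0.26 for RPS2. None of these 6 genes passed edgeR's test of the difference from ethanol (adjusted p 0.164 to 0.498). EEF1D of that complex changed by −0.78 ± 0.15 (SE, adjusted p = 0.00492), EEF2, which moves the ribosome along, by −0.69 ± 0.19 (SE, adjusted p = 0.035), and the initiation subunit EIF3F by −0.64 ± 0.15 (SE, adjusted p = 0.0131). The list had 3 calls without replicate 1 of 24 h and 2 without replicate 2 of 4 h. EEF1G (adjusted p = 0.0543), EEF1D (0.0873), EEF2 (0.162) and EIF3F (0.162) were not called without replicate 2 of 4 h. EEF2 (adjusted p = 0.0995) was not called without replicate 1 of 4 h. EEF1D (adjusted p = 0.0519), EEF2 (0.209) and EIF3F (0.115) were not called without replicate 1 of 24 h. EEF2 (adjusted p = 0.114) and EIF3F (0.0692) were not called without replicate 2 of 24 h.

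The first bases of these messages are shown because the TOP motif is defined there. RefSeq start sites on GRCh38.p14 were available for 7830 of the genes tested. A start site was counted as a TOP start where the first base was C and the next 4 or more were each C or T. At least 1 such start was listed for 46 of 62 ribosomal protein genes with a window (74.2%), beside 601 of 7830 genes tested (7.68%). Among genes lower at 24 h that are not ribosomal proteins, 30 of 202 (14.9%) had one, beside 20 of 395 genes higher at 24 h (5.06%). Most genes with such a start were not called, however. Of 555 outside the ribosomal proteins, 30 were lower (5.41%) and 20 higher, with a median log2 change of −0.08. Of the 7213 without one, 172 were lower (2.38%) and 375 higher, with a median of 0.007. A match is a description of letters in this window. The starts below, 25 bases each with the tract in capitals, come from the 5 called ribosomal protein or translation factor genes with a listed tract and the largest falls, and from the 2 ribosomal protein genes with the smallest changes among those that were not called and have a listed tract.
EEF1B2: CCTTTTTCCTCTCTTCagcgtgggg
RPS27: CCTTTCCggcggtgacgacctacgc
EEF1A1: CTTTTTCgcaacgggtttgccgcca
RPL28: CTCTTTCCgtctcaggtcgccgctg
RPL37A: CTTTCTgggctcggacctaggtcgc
RPL35: CTCTTTCCCTCggagcgggcggcgg
RPL13: CTTTCCgctcggctgttttcctgcg
In GRCh38.p14 these lie at chr2:206159895-206159919, chr1:153990762-153990786, chr6:73521008-73521032 (minus strand), chr19:55385932-55385956, chr2:216498844-216498868, chr9:124861933-124861957 (minus strand) and chr16:89560682-89560706, in the order listed, on the plus strand unless stated. The tracts of the 5 genes with large falls ran from 6 to 16 bases. RPL28, of the large subunit, had 398 and 391 CPM at 24 h, against 745 and 1032 CPM at 4 h, and changed by −1.17 ± 0.18 (SE, adjusted p = 0.000793). The tracts of RPL35 and RPL13 were 11 and 6 bases, and these genes changed by −0.28 ± 0.14 (SE, adjusted p = 0.253) and −0.31 ± 0.15 (SE, adjusted p = 0.242). Ribosomal protein genes with a listed tract had a median of −0.75 (46 genes, 36 lower), and those without one −0.66 (16 genes, 9 lower).

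**Figure D3:**
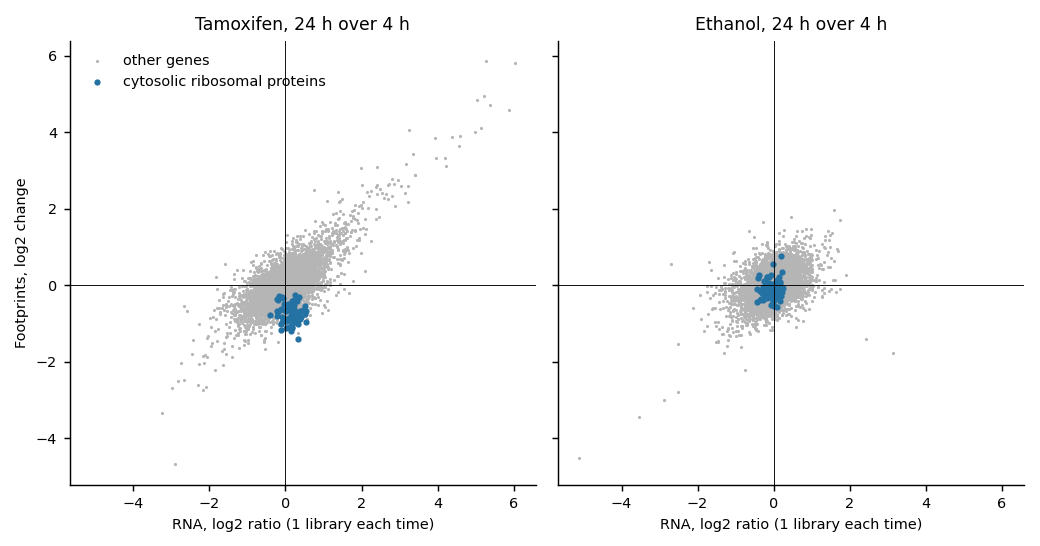
Log2 change of footprints (vertical) against the log2 ratio of RNA (horizontal) at 24 h over 4 h, under tamoxifen (left) and ethanol (right), for genes above 10 CPM. Blue points are cytosolic ribosomal proteins, grey points other genes. RNA and the ethanol footprints have 1 library per time. Under tamoxifen the blue points lie below 0 in footprints and on both sides of 0 in RNA, mostly above.

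Many interferon-induced genes rose after 4 h. Of 33 tested, 16 were higher at 24 h than at 4 h and 0 lower, where 5.12% of all genes were higher, and the median log2 change was 0.99. The list's median was 0.49 within replicate 1 and 0.98 within replicate 2, and −0.09 in the ethanol libraries. The median of the differences from ethanol was 0.79, with 1 ethanol library per time. Only 1 member, IRF7, passed edgeR's test of that difference, where 0.726% of all genes were above 0. RNA gave a median ratio of 0.75 over 24 genes. IFITM1, a membrane protein that blocks viral entry, had 134 and 104 CPM at 24 h, against 41.9 and 14.7 CPM at 4 h, a log2 change of 2.16 ± 0.33 (SE, adjusted p = 0.000921). IFI6, an inhibitor of cell death and of viral replication, had 18.5 and 33.1 CPM at 24 h, against 2.87 and 6.26 CPM at 4 h, a log2 change of 2.42 ± 0.38 (SE, adjusted p = 0.00102). IRF7, the master factor for type I interferon genes, had 14.8 and 18.1 CPM at 24 h, against 1.15 and 1.56 CPM at 4 h, a log2 change of 3.51 ± 0.61 (SE, adjusted p = 0.00214). In each case both 24 h libraries exceeded both 4 h libraries, though levels of IFI6 and IRF7 were low. IRF9, the DNA-binding part of the interferon-stimulated complex, rose by 1.07 ± 0.30 and was a further rise. IFITM3, a relative of IFITM1 with shared sequence, rose by 0.99 ± 0.19, OAS1, a sensor of double-stranded RNA, by 1.58 ± 0.36, and the RNA sensor DDX58 by 1.16 ± 0.26. Without replicate 2 of 4 h, 2 of the list were called, and without replicates 1 and 2 of 24 h and replicate 1 of 4 h the counts were 14, 6 and 10. IRF7 (adjusted p = 0.0574), IRF9 (0.295), IFITM3 (0.0796), OAS1 (0.197) and DDX58 (0.0894) were not called without replicate 2 of 4 h. IRF9 (adjusted p = 0.0973) and DDX58 (0.0567) were not called without replicate 1 of 4 h. IRF9 (adjusted p = 0.211) and IFITM3 (0.0591) were not called without replicate 1 of 24 h. IRF9 (adjusted p = 0.132), OAS1 (0.326) and DDX58 (0.295) were not called without replicate 2 of 24 h.

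The promoter stretches below are shown because interferon-activated factors bind GAAANNGAAA, the core of the interferon-stimulated response element. It was searched on both strands from 250 bases before to 50 bases after each RefSeq start. It was found for 10 of 13 interferon-induced genes higher at 24 h that had a window (76.9%), for 19 of 25 interferon-induced genes tested (76%) and for 304 of 7830 genes tested (3.88%). The 4 genes holding it with the largest rises and a mean above 1 CPM at 4 h are given in 30 bases, with the match in capitals.
IFI6: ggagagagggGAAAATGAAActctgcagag
IFITM1: caaacagcagGAAATAGAAActtaagagaa
ISG20: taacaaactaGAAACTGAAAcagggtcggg
IFI27: atgtctgcagTTTCGGTTTCctggaaaatg
They lie in GRCh38.p14 at chr1:27672329-27672358 (minus strand), chr11:313990-314019, chr15:88638937-88638966 and chr14:94110618-94110647, and the match of IFI27 is on the opposite strand. ISG20, an exonuclease that degrades viral RNA, had 36.3 and 33.7 CPM at 24 h, against 6.32 and 10.0 CPM at 4 h, a log2 change of 2.03 ± 0.43 (SE, adjusted p = 0.00767). IFI27, a mitochondrial protein induced by interferon, had 12.9 and 20.2 CPM at 24 h, against 3.45 and 5.94 CPM at 4 h, a log2 change of 1.77 ± 0.44 (SE, adjusted p = 0.0214). Both times were separated in each gene. ISG20 (adjusted p = 0.0621) and IFI27 (0.0969) were not called without replicate 2 of 4 h. ISG20 (adjusted p = 0.0529) and IFI27 (0.109) were not called without replicate 1 of 4 h. ISG20 (adjusted p = 0.0604) and IFI27 (0.276) were not called without replicate 2 of 24 h. Finding the letters does not show binding.

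Most genes of the hypoxia response rose after 4 h. Of 21 tested, 13 were higher (61.9%) and 0 lower, where 5.12% of all genes were higher, all 21 log2 changes were above 0 and the median was 1.16, with 1.17 for RNA over 19 genes. In ethanol the median was −0.04. The median of the differences from ethanol was 0.95, with 1 ethanol library per time, and most members did not pass edgeR's test of that difference. NDRG1, a stress and differentiation protein, had 2693 and 1673 CPM at 24 h, against 375 and 256 CPM at 4 h, a log2 change of 2.79 ± 0.24 (SE, adjusted p = 6.92e-06). EGLN3, an oxygen-sensing hydroxylase that marks HIF for decay, had 48.6 and 28.0 CPM at 24 h, against 5.17 and 3.75 CPM at 4 h, a log2 change of 3.10 ± 0.40 (SE, adjusted p = 0.000195). HIF1A, the oxygen-regulated transcription factor itself, had 1268 and 1472 CPM at 24 h, against 511 and 313 CPM at 4 h, a log2 change of 1.74 ± 0.20 (SE, adjusted p = 6.26e-05). The times did not overlap in these genes. VEGFA, which drives vessel growth, rose by 1.45 ± 0.29, and BNIP3 and BNIP3L, mitophagy receptors, by 1.36 ± 0.18 and 1.60 ± 0.25. LOX, which crosslinks collagen, rose by 1.93 ± 0.29. DDIT4, an inhibitor of mTORC1, rose by 1.51 ± 0.40, beside 1.37 in ethanol. Of the list, 7 were called without replicate 2 of 4 h and 8 without replicate 1 of 24 h. In glycolysis and the pentose phosphate pathway 5 of 31 rose (16.1%, beside 5.12% of all genes) and 0 fell, with a median of 0.19. The list had 1 call without replicate 2 of 4 h, 1 without replicate 2 of 24 h and 2 without replicate 1 of 24 h. PFKFB3, which makes the activator of phosphofructokinase, had 299.5 and 265 CPM at 24 h, against 61.5 and 44.4 CPM at 4 h, a log2 change of 2.44 ± 0.21 (SE, adjusted p = 6.92e-06). PGK1, a glycolytic kinase, had 1241 and 1319 CPM at 24 h, against 743 and 731 CPM at 4 h, and rose by 0.80 ± 0.16 (adjusted p = 0.00485). HK2, which phosphorylates glucose, rose by 0.65 ± 0.18 (adjusted p = 0.0338). VEGFA (adjusted p = 0.132), BNIP3L (0.0512), DDIT4 (0.297), PGK1 (0.0611) and HK2 (0.336) were not called without replicate 2 of 4 h. VEGFA (adjusted p = 0.071), DDIT4 (0.199) and HK2 (0.111) were not called without replicate 1 of 24 h. DDIT4 (adjusted p = 0.0642), PGK1 (0.0516) and HK2 (0.189) were not called without replicate 2 of 24 h.

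Some lysosomal and secreted proteases gained footprints. Among 26 genes of proteases and the plasminogen system, 7 were higher (26.9%, beside 5.12% of all genes) and 1 lower (3.85%, beside 3.28%), with a list median of 0.28 and −0.42 in ethanol. CTSL1, the cysteine protease cathepsin L, had 1413 and 1395 CPM at 24 h, against 245 and 209 CPM at 4 h, a log2 change of 2.63 ± 0.20 (SE, adjusted p = 2.94e-06). CTSB, cathepsin B, had 5575 and 4537 CPM at 24 h, against 1049 and 614 CPM at 4 h, a log2 change of 2.61 ± 0.23 (SE, adjusted p = 7.44e-06). SERPINE2, an inhibitor of thrombin and plasminogen activators, had 957 and 800.3 CPM at 24 h, against 181 and 139 CPM at 4 h, a log2 change of 2.46 ± 0.29 (SE, adjusted p = 8.35e-05). Each was separated between the times with replicates close at 24 h. Over the list the median of the differences from ethanol was 1.11, and most members did not pass edgeR's test of that difference. MMP14, a membrane-anchored collagenase, rose by 1.15 ± 0.24, the metalloprotease inhibitor TIMP1 by 0.75 ± 0.19, and the sheddase ADAM19 by 2.77 ± 0.37. Leaving out libraries left 4 to 6 rises, the fewest without replicate 2 of 4 h. MMP14 (adjusted p = 0.0739) and TIMP1 (0.204) were not called without replicate 2 of 4 h. TIMP1 (adjusted p = 0.142) was not called without replicate 1 of 24 h. TIMP1 (adjusted p = 0.0606) was not called without replicate 2 of 24 h.

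Some integrins rose, and some matrix genes rose while others fell. Of 14 integrins 3 were higher (21.4%) and 0 lower, where 5.12% of all genes were higher and 3.28% lower, and 0 were called without replicate 2 of 4 h. ITGA5, the fibronectin receptor chain, had 544 and 368 CPM at 24 h, against 210.2 and 120.4 CPM at 4 h, a log2 change of 1.48 ± 0.26 (SE, adjusted p = 0.00217). ITGA2, the collagen receptor chain, had 563 and 538 CPM at 24 h, against 286 and 181 CPM at 4 h, a log2 change of 1.25 ± 0.22 (SE, adjusted p = 0.00214). ITGB3, a chain of the vitronectin receptor, had 9.23 and 10.2 CPM at 24 h, against 1.15 and 0.938 CPM at 4 h, a log2 change of 3.21 ± 0.59 (SE, adjusted p = 0.00304). The 24 h libraries were the higher ones in each, and levels of ITGB3 were low. In matrix genes 5 of 23 were higher (21.7%), with TNC, tenascin C of wounds and tumours, at 2.18 ± 0.47, and 2 were lower (8.7%). The list had 1 higher gene without replicate 2 of 4 h and 2 without replicate 1 of 24 h. THBS1, the matricellular protein thrombospondin 1, had 1028 and 915 CPM at 24 h, against 4116 and 2854 CPM at 4 h, a log2 change of −1.84 ± 0.31 (SE, adjusted p = 0.00166), with −1.12 in ethanol. TGFBI, a matrix protein induced by TGF-beta, had 2905 and 3507 CPM at 24 h, against 5646 and 6625 CPM at 4 h, a log2 change of −0.94 ± 0.16 (SE, adjusted p = 0.002). Of 34 actin and contractile genes 2 were higher (5.88%) and 1 lower (2.94%), close to the shares over all genes, and 1 was higher without replicate 2 of 4 h or when either library of 24 h was left out. TMSB4X, which binds actin monomers, had 1202 and 962 CPM at 24 h, against 412 and 401 CPM at 4 h, a log2 change of 1.41 ± 0.17 (SE, adjusted p = 0.000112), and TPM1, a tropomyosin, had 38.8 and 43.1 CPM at 24 h, against 90.7 and 86.3 CPM at 4 h, a log2 change of −1.10 ± 0.19 (SE, adjusted p = 0.002). YAP targets gave 4 lower (23.5%) and 0 higher of 17, and their median log2 change was −0.63 beside −0.45 in ethanol. CYR61, a matricellular YAP target, had 49.2 and 78.6 CPM at 24 h, against 164 and 159 CPM at 4 h, a log2 change of −1.30 ± 0.27 (SE, adjusted p = 0.00695) with −1.004 in ethanol, and the difference was −0.28 (adjusted p = 0.823). The list had 1 call without replicate 2 of 24 h and 2 calls when either library of 4 h was left out. ITGA5 (adjusted p = 0.0603), ITGA2 (0.0574), ITGB3 (0.0894), TNC (0.137) and CYR61 (0.0603) were not called without replicate 2 of 4 h. TNC (adjusted p = 0.0771) and CYR61 (0.0899) were not called without replicate 1 of 24 h. ITGB3 (adjusted p = 0.0604) was not called without replicate 2 of 24 h.

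Some immediate-early, STAT3 and MAPK feedback genes rose after 4 h, and most members of these lists were not called. In the STAT3 list 3 of 19 rose (15.8%) and 1 fell (5.26%), where 5.12% of all genes were higher and 3.28% lower. OSMR, a receptor chain for oncostatin M, had 357 and 297 CPM at 24 h, against 217 and 146 CPM at 4 h, a log2 change of 0.85 ± 0.17 (SE, adjusted p = 0.00626). STAT3 rose by 0.81 ± 0.18, and the cytokine LIF had 0 and 1.20 CPM at 24 h, against 9.76 and 8.76 CPM at 4 h, a log2 change of −3.45 ± 0.71 (SE, adjusted p = 0.00664). In the list of NF-kB targets and inflammatory mediators, SOD2 rose, IL1B and CSF1 fell and 25 of 28 were not called. Immediate-early factors gave 7 higher of 22 (31.8%) and 0 lower, with a median of 0.51. The list had 2 calls without replicate 2 of 4 h, 3 when either library of 24 h was left out and 4 without replicate 1 of 4 h. FOS, a partner in the AP-1 dimer, had 204 and 172 CPM at 24 h, against 51.1 and 18.5 CPM at 4 h, a log2 change of 2.52 ± 0.35 (SE, adjusted p = 0.000389). ZFP36, which destabilises inflammatory messages, had 161 and 158 CPM at 24 h, against 67.8 and 47.5 CPM at 4 h, a log2 change of 1.49 ± 0.21 (SE, adjusted p = 0.000411), and FOSL2 of the FOS family had 97.8 and 72.3 CPM at 24 h, against 51.1 and 29.7 CPM at 4 h. Both 24 h libraries were the higher ones throughout. SPRED1, an inhibitor of RAS signalling, rose by 1.83 ± 0.23 (adjusted p = 0.000132), and the phosphatases DUSP6 and DUSP1, which switch off MAP kinases, by 1.51 ± 0.25 and 1.00 ± 0.21 (adjusted p = 0.0015 and 0.0067). These were 3 of 20 genes of MAPK feedback (15%), where 0 fell. The STAT3 and MAPK feedback lists each had 1 higher gene without replicate 2 of 4 h. The NF-kB list had 0 lower genes without that library or when either library of 24 h was left out. OSMR (adjusted p = 0.121), STAT3 (0.191), LIF (0.0604), FOSL2 (0.22), DUSP6 (0.0539) and DUSP1 (0.131) were not called without replicate 2 of 4 h. OSMR (adjusted p = 0.0768), LIF (0.0534) and FOSL2 (0.127) were not called without replicate 1 of 24 h. STAT3 (adjusted p = 0.127) and DUSP1 (0.0562) were not called without replicate 2 of 24 h.

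Some genes of cholesterol synthesis and uptake rose under tamoxifen, and the list's ethanol medians were above 0 too. Of 23 tested, 11 were higher (47.8%, beside 5.12% of all genes) and 0 lower, with a median of 0.61. The ethanol libraries gave a median of 0.29 for footprints and 0.45 for RNA, and 0 of 23 passed the test of the difference from ethanol, with 1 above and 0 below at an unadjusted p under 0.05 in edgeR. HSD17B7, a reductase of the pathway, had 37.5 and 32.8 CPM at 24 h, against 11.5 and 10.3 CPM at 4 h, a log2 change of 1.69 ± 0.29 (SE, adjusted p = 0.00214). HMGCS1, an early enzyme of the pathway, had 165 and 206 CPM at 24 h, against 107 and 99.2 CPM at 4 h, a log2 change of 0.85 ± 0.17 (SE, adjusted p = 0.00574). MSMO1, a sterol oxidase, had 409 and 357 CPM at 24 h, against 199.9 and 148 CPM at 4 h, a log2 change of 1.14 ± 0.25 (SE, adjusted p = 0.0103) with 0.80 in ethanol. The list had 0 calls without replicate 2 of 4 h, 3 when either library of 24 h was left out and 7 without replicate 1 of 4 h. HSD17B7 (adjusted p = 0.0604), HMGCS1 (0.0925) and MSMO1 (0.159) were not called without replicate 2 of 4 h. MSMO1 (adjusted p = 0.0795) was not called without replicate 1 of 24 h. HMGCS1 (adjusted p = 0.105) was not called without replicate 2 of 24 h.

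Some DNA replication genes fell, and no mitosis gene was called. Of 51 replication genes 7 were lower at 24 h than at 4 h (13.7%, beside 3.28% of all genes) and 0 higher, 46 had a log2 change below 0 and the median was −0.44, beside −0.16 in ethanol. At 24 h over uninduced 23 were lower, where 5.85% of all genes were. The median of the differences from ethanol was −0.27, and the members did not pass edgeR's test of that difference. PCNA, the sliding clamp of DNA polymerase, had 299.5 and 363 CPM at 24 h, against 624 and 749.5 CPM at 4 h, a log2 change of −1.05 ± 0.22 (SE, adjusted p = 0.00744). GINS1, of the replicative helicase, had 23.4 and 23.5 CPM at 24 h, against 45.9 and 53.5 CPM at 4 h, a log2 change of −1.09 ± 0.20 (SE, adjusted p = 0.00304), and TYMS, which makes thymidylate, had 151 and 180.3 CPM at 24 h, against 229 and 333 CPM at 4 h, a log2 change of −0.76 ± 0.17 (SE, adjusted p = 0.0123). In all 3 the 24 h libraries lay below those of 4 h. Of 45 mitosis genes 0 were called by edgeR and 0 by DESeq2, with 0 above and 5 below at an unadjusted p under 0.05 in edgeR and a median of −0.09. Of the replication genes, 0 were called without replicate 2 of 4 h, 1 without replicate 1 of 24 h, 2 without replicate 2 of 24 h and 3 without replicate 1 of 4 h. PCNA (adjusted p = 0.098), GINS1 (0.0678) and TYMS (0.24) were not called without replicate 2 of 4 h. PCNA (adjusted p = 0.0914) and TYMS (0.13) were not called without replicate 1 of 24 h. GINS1 (adjusted p = 0.0507) was not called without replicate 2 of 24 h. Histone genes gave 2 of 37 lower (5.41%), but 9 without replicate 1 of 4 h, 1 without replicate 1 of 24 h and 0 without replicate 2 of either time, and their median was 0.14 within replicate 1 and −1.06 within replicate 2.

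Keratins and other epithelial genes split. KRT6A, a keratin of activated epidermis, had 2888 and 3223 CPM at 24 h, against 1489.8 and 1081 CPM at 4 h, a log2 change of 1.25 ± 0.18 (SE, adjusted p = 0.000447), and the similar KRT6B had 59.7 and 62.0 CPM at 24 h, against 19.5 and 12.8 CPM at 4 h, a log2 change of 1.96 ± 0.41 (SE, adjusted p = 0.00767). KRT81, a hair-type keratin, had 1755 and 1989.8 CPM at 24 h, against 4985 and 5111 CPM at 4 h, a log2 change of −1.43 ± 0.19 (SE, adjusted p = 0.000265). Its near-identical neighbour KRT86 had 13.5 and 19.9 CPM at 24 h, against 57.4 and 53.5 CPM at 4 h, a log2 change of −1.67 ± 0.22 (SE, adjusted p = 0.000196), so counts split within each pair are uncertain. Keratins gave 2 higher (13.3%) and 1 lower (6.67%) of 15 tested, where 5.12% of all genes were higher and 3.28% lower, KRT86 not being on the list. S100A2, a calcium-binding protein of basal epithelium, had 10788 and 9777 CPM at 24 h, against 19412 and 17602 CPM at 4 h, a log2 change of −0.85 ± 0.20 (SE, adjusted p = 0.0137), the opposite direction to S100A8 and S100A9. Of 12 S100 proteins 4 were higher (33.3%) and 2 lower (16.7%). The other calls, named after their values were seen, were S100A3 (1.99 ± 0.58, adjusted p = 0.0439), S100P (0.96 ± 0.26, adjusted p = 0.0327) and S100A14 (−0.95 ± 0.26, adjusted p = 0.0356). The list had 2 higher and 0 lower without replicate 2 of 24 h, and the same counts without replicate 1 of 4 h, where none of these 3 was called in either case. S100A3 (adjusted p = 0.105) was not called without replicate 1 of 24 h, nor was S100P (0.065) without replicate 2 of 4 h. Among 9 tight junction genes 3 fell (33.3%, beside 3.28% of all genes) and 0 rose, namely CLDN1, OCLN and MARVELD2, a tricellular junction protein with 19.7 and 18.1 CPM at 24 h, against 37.9 and 36.9 CPM at 4 h. The median of the 9 was −0.12, beside −0.66 in ethanol. OCLN changed by −1.15 and MARVELD2 by −0.61 in ethanol, and neither passed the test of the difference (adjusted p = 0.244 and 0.776), which CLDN1 passed. KRT6B (adjusted p = 0.15), S100A2 (0.068) and MARVELD2 (0.109) were not called without replicate 2 of 4 h. S100A2 (adjusted p = 0.0726) and MARVELD2 (0.0567) were not called without replicate 1 of 4 h. S100A2 (adjusted p = 0.0591) and MARVELD2 (0.0649) were not called without replicate 1 of 24 h. KRT6B (adjusted p = 0.0814), S100A2 (0.126) and MARVELD2 (0.156) were not called without replicate 2 of 24 h.

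**Figure D4:**
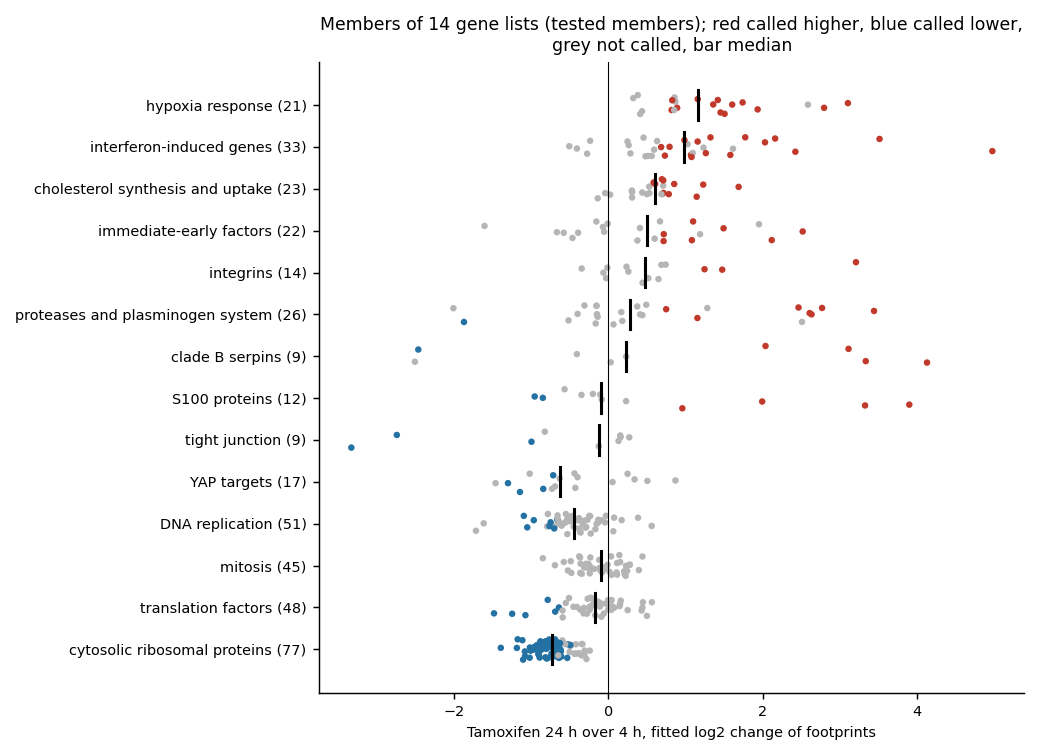
Fitted log2 change of footprints, tamoxifen 24 h over 4 h, for the tested members of 14 gene lists, with the number tested in brackets. Red points were called higher, blue lower, grey neither, and the bar is the list median. Hypoxia and interferon lists lie mostly to the right (medians 1.16 and 0.99), ribosomal proteins wholly to the left (median −0.73).

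ALDH1A3, which makes retinoic acid and marks breast stem-like cells (GRCh37 chromosome 15, 101417919 to 101456831), had the largest late fall among genes above the median level. It had 29.5 and 28.9 CPM at 24 h, against 164 and 212 CPM at 4 h, a log2 change of −2.69 ± 0.35 (SE, adjusted p = 0.000179) with −1.20 in ethanol. DKK1, a secreted Wnt inhibitor, had 11.7 and 25.6 CPM at 24 h, against 56.9 and 126 CPM at 4 h, a log2 change of −2.22 ± 0.48 (SE, adjusted p = 0.00881) with −0.79 in ethanol. TINAGL1, a secreted matrix-linked protein, changed by −2.04 ± 0.36 (SE, adjusted p = 0.00244), and SEMA3C, a guidance signal, by −2.03 ± 0.40 (SE, adjusted p = 0.00536). Both 24 h libraries of each gene were below both 4 h libraries. TUBA4A, an alpha tubulin, had 214 and 226 CPM at 24 h, against 697 and 757 CPM at 4 h, with a log2 change of −1.72 ± 0.29 (SE, adjusted p = 0.00171) and −0.9999 in ethanol. The difference from ethanol was not called for TUBA4A (adjusted p = 0.294), DKK1 (0.412), TINAGL1 (0.208) or SEMA3C (0.320). DKK1 (adjusted p = 0.197), TINAGL1 (0.0752) and SEMA3C (0.106) were not called without replicate 2 of 4 h. DKK1 (adjusted p = 0.0897) and SEMA3C (0.0572) were not called without replicate 1 of 24 h.

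SRC and ESR1, the genes whose parts make the fusion, were not called. SRC had 229 and 314 CPM at 24 h, against 223 and 239.6 CPM at 4 h, a log2 change of 0.24 ± 0.22 (SE, adjusted p = 0.558), and ESR1 had 1218 and 1189 CPM at 24 h, against 957 and 769 CPM at 4 h, a log2 change of 0.48 ± 0.23 (SE, adjusted p = 0.226). Counts on them may hold both the fusion and the cells' own genes. SGK1 and GADD45B, the early genes of 1 h, changed by 0.57 ± 0.19 (SE, adjusted p = 0.0861) and 0.26 ± 0.26 (SE, adjusted p = 0.603) between 4 h and 24 h.

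Time in culture was checked with the ethanol libraries, of which there was 1 at each time, all replicate 2. Between them, 1 gene was called higher (0.00955%) and 5 lower (0.0477%) at 24 h than at 4 h of 10473 tested, or 0.0573% in either direction, assuming that single libraries vary like the tamoxifen ones. The tamoxifen change minus the ethanol change was called above 0 for 76 genes (0.726%) and below 0 for 16 (0.153%), or 0.878% in either direction. Among genes called lower under tamoxifen, 262 of 334 had an ethanol change of the same sign, with a median of −0.22, and among those called higher 297 of 519 with a nonzero ethanol change did, with a median of 0.06. Over all genes tested 6020 of 10192 did. The ethanol change of STC1 was −2.25, and the difference was 6.97 ± 1.00 (SE, adjusted p = 0.0022). S100A8 differed by 4.99 ± 0.46 (adjusted p = 5.69e-05) and CTSL1 by 3.17 ± 0.28 (adjusted p = 5.69e-05). CLDN1 differed by −2.50 ± 0.39 (adjusted p = 0.00388) and CD24 by −2.16 ± 0.31 (adjusted p = 0.0022). For these genes the tamoxifen and ethanol changes differed beyond the spread of the libraries.

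In each of the other gene lists at most 3 members were called in one direction, where 5.12% of all genes were higher and 3.28% lower. Of 22 heat shock proteins and 6 genes of class I antigen presentation 0 were called by edgeR or DESeq2, with 1 and 0 above and 2 and 1 below at an unadjusted p under 0.05. The respiratory chain had 1 of 64 lower, the proteasome 2 of 35 lower, nucleolar ribosome assembly 2 of 44 lower and the p53 list 1 of 24 lower. ATF4 targets had 2 higher and 3 lower of 28. SLC7A5, a transporter of large neutral amino acids, had 554 and 531 CPM at 24 h, against 1089 and 993 CPM at 4 h, a log2 change of −0.94 ± 0.16 (SE, adjusted p = 0.00204), and its partner chain SLC3A2 had 415 and 498 CPM at 24 h, against 749 and 804 CPM at 4 h, a log2 change of −0.77 ± 0.18 (SE, adjusted p = 0.015). Both genes were lower in both 24 h libraries than in either of 4 h. SLC3A2 (adjusted p = 0.128) was not called without replicate 2 of 4 h. SLC3A2 (adjusted p = 0.147) was not called without replicate 1 of 24 h. SLC3A2 (adjusted p = 0.0537) was not called without replicate 2 of 24 h. Genes of protein folding in the endoplasmic reticulum had 1 higher and 3 lower of 31, fatty acid synthesis 2 higher and 1 lower of 16, and aminoacyl-tRNA synthetases 2 higher and 0 lower of 22. Desmosome and adherens junction genes had 1 higher and 1 lower of 19, laminins 1 higher of 16, mesenchymal transition genes 1 higher of 19, cornified envelope genes 1 lower of 15 and the EGF receptor family 1 lower of 10. Metallothioneins and iron genes had 2 higher and 1 lower of 17, the BCL2 family 1 higher of 9 (BIK), prostaglandin synthesis 1 higher of 8 and oestrogen receptor targets 1 higher of 6. With each library left out in turn, these lists had at most 4 members called in one direction, with fatty acid synthesis at 4 higher without replicate 1 of 4 h.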

How the data were processed

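Ribosome footprints and RNA were deposited by the authors as tables of raw read counts per transcript, 1 table per library, with 36499 transcript rows for 19137 gene symbols. TopHat and hg19 are named per the submitters' processing notes, while which program counted the reads is not given in those or other sources used here. Where a symbol had several rows (7636 symbols), the row with the highest mean count was kept. Genes passing filterByExpr (minimum count 10, minimum total 15) were fitted with edgeR 4.0.16 in R 4.3.3, by its quasi-likelihood test with TMM scaling, over the 10 cycloheximide libraries in 4 arms (tamoxifen 24, 4 and 1 h with 2 libraries each, uninduced with 4), with Benjamini-Hochberg adjustment over all 10195 genes and a threshold of 0.05. Pooling of uninduced libraries joins 0 h (replicate 1) with ethanol (replicate 2). Differences from ethanol came from a fit of 7 arms, where single libraries take the shared spread. RNA, harringtonine and within-replicate ratios are log2 ratios of CPM + 1 without a test, which understates changes of low genes. Depth limits precision, so low genes have wide errors.

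Named genes were those called, above the median level and without overlap between times (12 largest rises, 12 largest falls, 6 per time class), the 3 called members of each of 41 gene lists with the smallest p, the called rises at 1 h, SRC and ESR1. The members and lists were chosen with earlier results of these data known. CCL2, BCL3, CXCL11, CD14, CD68, DCN, RPL13, RPL28, RPL35 and list members without a place under that rule (ADAM19, BNIP3, BNIP3L, DDIT4, DDX58, EEF1D, EEF2, EIF3F, IFI27, IFITM3, IRF9, ISG20, MMP14, OAS1, S100A3, S100A14, S100P, SERPINB7, SLC3A2, STAT3, TIMP1, TNC, VEGFA) were named after their values were seen. Some genes that the rule or lists name are not reported here. The fits were tested on simulated data. Alternatives were RLE and upper-quartile scaling, no filter, fewer libraries or more arms in the fit, a replicate block, another transcript row, DESeq2 1.42.0 and each library left out in turn. Start sites and promoter windows came from RefSeq tables on GRCh38.p14, a build other than that of the counts.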

Additional observations from a re-analysis of the deposited data

Results flagged for a closer look

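For the 29 named genes given here, the change from 4 h to 24 h under tamoxifen differed from that under ethanol in a test of the difference itself, with 1 ethanol library at each time and edgeR's quasi-likelihood test. Differences are tamoxifen minus ethanol on the log2 scale. Above 0, the secreted and protease-linked genes were STC1 (6.97), SERPINB4 (5.96), TGM2 (5.77), IL24 (5.49), S100A8 (4.99), SERPINB3 (4.77), S100A9 (4.12), SERPINB1 (3.63), CTSL1 (3.17), SERPINE2 (3.15), CTSB (2.97) and TNFRSF6B (2.60). Genes of hypoxia, metabolism and interferon were IRF7 (5.07), EGLN3 (3.78), NDRG1 (3.26), PFKFB3 (2.87) and SOD2 (1.55). Surface, cytoskeletal and signalling genes were CLEC2B (4.54), KRT6B (3.40), SPRED1 (2.12), TMSB4X (1.84), ITGA2 (1.78) and KRT6A (1.53). Below 0 were the epithelial genes GRHL3 (−4.22), CLDN1 (−2.50), CD24 (−2.16), KRT81 (−1.99) and KRT86 (−1.90), and the retinoic acid enzyme ALDH1A3 (−1.47).

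In 4 of the 114 named genes 1 of the 4 uninduced libraries stood apart from the rest, by its gap to the nearest library as a share of the range. Genes at low levels were not flagged. Chance flags about 1 in 20 groups, so among 114 genes these 4 are not more than chance can give. TMSB4X had 246 CPM in ethanol 24 h (gap 0.975 of the range) and 328 to 331 CPM in the others. TGM2 had 5.52 CPM in ethanol 24 h (0.907) and 18.1 to 20.3 CPM in the others. CDC42EP1 had 73.1 CPM at 0 h (0.923) and 56.4 to 57.6 CPM in the others. SLC30A1, a zinc exporter, had 176 CPM in ethanol 4 h (0.889) and 136 to 140.0 CPM in the others.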

How the results depend on the processing

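None of the 110 called named genes reversed under the 14 alternatives for the 24 h over 4 h comparison, and 47 of them kept their call in all 14. Of genes not called, SRC turned to −0.015 without replicate 2 of 24 h and GADD45B to −0.0153 without replicate 2 of 4 h. List values are given here for fits with each library left out and, for some lists, for DESeq2. When a library was left out, medians near 0 changed sign in some lists, as in NF-kB targets (0.176 without replicate 2 of 24 h, beside −0.072). Counts of genes called higher and lower were within 1.5 times the reported ones under RLE and upper-quartile scaling, no filter, the 6 tamoxifen libraries, 7 arms, another transcript row and DESeq2, which called 703 genes. Upper-quartile scaling gave 55.6% higher among called genes, against 61% with TMM. With the 4 libraries alone 507 genes were lower. Leaving out each tamoxifen library in turn gave 125 to 407 higher and 55 to 237 lower genes. Without replicate 2 of 4 h, 179 of the 180 genes called were among the 856. Leaving out each 4 h library in turn gave 108 to 404 late rises, 3 to 17 further rises, 3 to 4 faded rises and 52 to 233 late falls. The cause of these moves was not tested. Depth (1632319 and 3343418 counts at 24 h, against 1757548 and 3268471 at 4 h) and 2 libraries per time limit what low genes can show.

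Same-numbered tamoxifen libraries had correlations of deviations from their group means of 0.18 (24 h and 4 h), 0.16 (4 h and 1 h) and 0.04 (24 h and 1 h). The main fit treats them as sharing only a number. On the second principal component replicate 1 libraries lay at 4.17 to 24.3 and replicate 2 libraries at −15.3 to −1.26. The 10 libraries thus split there by replicate number, which the main fit leaves out, and the uninduced arm mixes both numbers. With the replicate block, 1005 genes were called over 10 libraries, and 1150 higher and 994 lower over the 4 libraries alone. The test of the difference from ethanol with the block gave 144 genes above and 47 below 0.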
